A study of Mus musculus with 157 samples.

Results

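The enzymes that act on uracil, abasic sites and mismatched bases in activated B cells were followed along polysome gradients through 5 mRNAs, those of Ung, Msh6, Apex1, Apex2 and Pms2. All 5 were found by gene symbol among the 19600 genes of the table, each as a single gene. Mouse splenic B cells (C57BL/6Babr) were activated with lipopolysaccharide (LPS, 10 µg/ml), a bacterial mitogen, and fell into 3 treatments. The LPS cells were cultured for 48 h. The LPS+ET cells received in addition etoposide (20 µM, 4 h), a topoisomerase II poison that leaves DNA double-strand breaks. In the LPS+ET+KU cells KU55933 (10 µM), an inhibitor of the damage kinase ATM, was added 1 h ahead of the etoposide, after 47 h of LPS. Cycloheximide (100 µg/ml, 3 min), which holds ribosomes on mRNA, was given to every culture before lysis. Each treatment had 4 sucrose gradients, under the column-name codes LUL15, LUL16, LUL17 and LUL18, which are called pools here. The column names do not say what these codes stand for. From each gradient 13 fractions were sequenced from the 3′ ends of their mRNAs. Fractions 4 to 7 were classed as monosomes, fractions 8 to 10 as light polysomes and fractions 11 to 16 as heavy polysomes. In such bulk samples fewer cells of a type and less RNA per cell cannot be told apart.

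Class switching starts from uracils made in the immunoglobulin switch regions by cytosine deamination. The uracil-DNA glycosylase Ung removes the uracil base, and the abasic site that remains is cut by apurinic/apyrimidinic endonucleases, of which Apex1 is the main enzyme of base excision repair and Apex2 a weaker endonuclease with strong 3′-end processing activity. A parallel route reads the uracil as a U:G mismatch, through a recognition complex that holds Msh6, and cuts the strand through a second complex whose nuclease subunit is Pms2. A polysome gradient separates mRNAs by the number of ribosomes they carry. A change may appear in the level of an mRNA among the sequenced ribosome fractions, called ribosome association here, or in where along the gradient it lies. Neither ribosome-free mRNA nor total cellular mRNA, which the study measured separately, enters these levels. The bound share of an mRNA is therefore not measured, and a lower level on ribosomes cannot be told apart from less of that mRNA in the cell.

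A 3′ end count is tied to the genomic position at which an mRNA ends, so the counted sites define which transcripts are seen. The last 30 bases before each site that lies in an annotated exon are given here, in GRCm38 coordinates and from the GENCODE M21 transcripts, because they show whether a count comes from an ordinary mRNA end. Capitals mark the poly(A) signal hexamer, AATAAA or ATTAAA, where the sense strand of the window holds it.
Ung, chr5:114139289-114139318, plus strand: ctgaccaggctAATAAAagatggttgacaa
Apex1, chr14:50927110-50927139, plus strand: atccaagagaAATAAAaggccctactttca
Apex2 site 1, chrX:150571507-150571536, minus strand: ataAATAAAggtcacgtctttgtttcagta
Apex2 site 2, chrX:150568862-150568891, minus strand: tcgcacATTAAActctgatatattttctca
Pms2 site 1, chr5:143931413-143931442, plus strand: caaaaaaaaaaaagatatttttgaagcctt
Pms2 site 2, chr5:143931727-143931756, plus strand: cccacATTAAAaaaatatggtcttttttaa
Pms2 site 3, chr5:143931962-143931991, plus strand: taggATTAAAgtcacgagccaccacaccta

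Ung and Apex1 were each counted at 1 site, which was the annotated end of a coding transcript in both genes, with AATAAA 19 bases before the end in Ung and 20 bases in Apex1. Apex2 had 94.7% of its 2081 counts at its first site, within 1 base of a coding transcript end. The rest lay at the end of a longer coding transcript, inside Alas2 on the other strand. These sites were 51988 and 49343 bases short of the annotated Apex2 gene end. Either hexamer occurred in 70.0% of 12560 such windows across the table, so its presence does not set the members apart. The Apex1 end is overlapped on the other strand by Pip4p1, whose own counted site lies 76 bases away, and whether counting used strand is not given in the sources used here.

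The 2 mismatch repair genes were not counted at annotated ends of their coding transcripts. The 828 counts of Pms2 fell at 3 sites within its last untranslated exon, between 1977 and 2526 bases short of the gene end. The first of them holds 60.5% of the counts, has neither hexamer and ends a noncoding Pms2 transcript. A same-strand gene model, Gm42421, and an antisense one, Gm17135, overlap all 3 Pms2 sites. The 57 counts of Msh6 (chr17:87975062-87990892) all fell in introns, 52 of them at a site 6796 bases short of the gene end and 462 bases from the nearest annotated transcript end. The Pms2 and Msh6 values below are therefore values of those sites, and no counted site lay at the 3′ end of the full-length Msh6 mRNA.

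Libraries held 14724 to 4170688 counts and whole gradients 6404957 to 21449781, the lowest being the LPS+ET gradient of pool LUL16. That gradient also stood apart in having 30.4% of its counts in heavy polysomes, against 60.5% to 68.2% in the other LPS+ET gradients. The B cell markers Cd79b, Cd22, Cd79a, Ms4a1 and Pax5 were present, and their sum per gradient was 1285 to 1412 CPM (the counts of a gene scaled to a fixed library total) with LPS alone, 755 to 828 CPM with etoposide and 847 to 1241 CPM with etoposide and KU55933, so that no treated gradient reached the LPS range. The 6 plasma cell markers, led by Igj, summed per gradient to 388 to 641 CPM with LPS alone, to 395 to 1239 CPM with etoposide and to 199 to 687 CPM with etoposide and KU55933. The 8 myeloid markers, led by Lyz2, summed to 33.4 to 86.8, 47.6 to 167 and 32.9 to 125 CPM in the same order. Of 8 T cell markers 5 were in the table, and their sum of 130 to 159, 108 to 295 and 82.8 to 374 CPM was nearly all Lck, since Cd3d averaged 0.904 CPM and Cd3e, Cd3g and Cd8a 0.144 CPM or less. Of 6 erythroid markers 4 were in the table, at 56.1 to 63.9, 34.9 to 89.5 and 23.2 to 177 CPM, with Hbb-b2 averaging 62.0 CPM and the others 0.431 CPM or less. None of the 3 NK cell markers had a place in the table. The part that these levels have in the results was not tested. One LPS fraction-17 library of 777 counts held no count of any member, which allows a share of up to 0.386%.

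Over whole gradients, Apex1 was the most abundant member by more than 10-fold. Since a 3′ end is counted once per mRNA whatever its length, levels in CPM can be set beside each other between genes. For Pms2 and Msh6 the levels cover only the counted sites, which lay in introns in Msh6, and not the full-length mRNAs. In LPS, Apex1 had 363 ± 88.1 CPM (SD, n = 4), a level above that of 97.9% of genes. Ung had 20.9 ± 5.80 CPM and Apex2 18.1 ± 7.05 CPM, which differed by less than the spread between gradients. Pms2 followed with 6.85 ± 1.67 CPM, against 2.25 CPM for the median gene, and Msh6 was the lowest at 0.173 CPM. The order of Apex1, then Ung and Apex2, then Pms2, then Msh6 also held for the mean levels of both etoposide treatments, except that the Apex2 mean (12.9 CPM) lay above that of Ung (12.0 CPM) in LPS+ET.

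**Figure D1:**
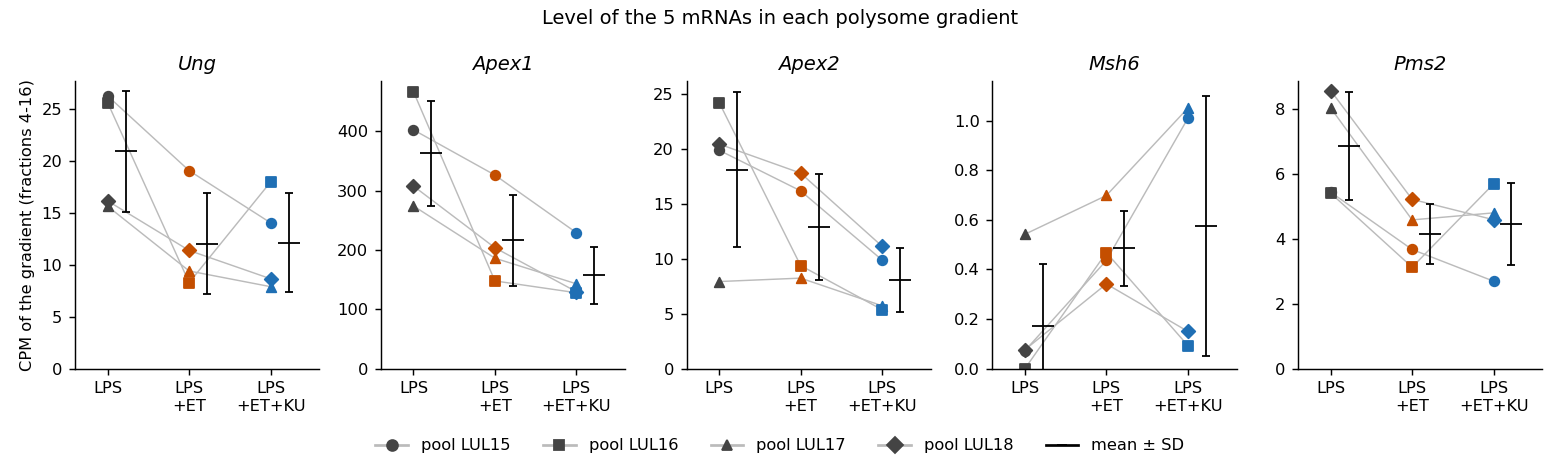
Level of each member in CPM of the gradient total (fractions 4 to 16), with a point per gradient, grey lines joining the gradients of a pool, and mean ± SD beside the points. The 4 Apex1 points of LPS+ET+KU lie below those of LPS, as do the Pms2 points of LPS+ET, whereas Ung and Apex2 overlap between treatments.

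Apex1 mRNA on ribosomes, in CPM of the summed fractions, was lower in both etoposide treatments and lowest with KU55933. In pools LUL15, LUL16, LUL17 and LUL18 its level was 403, 467, 274 and 308 CPM in LPS. It was 326, 148, 186 and 204 CPM in LPS+ET and 229, 128, 143 and 130 CPM in LPS+ET+KU. Within each of the 4 pools the order was LPS, then LPS+ET, then LPS+ET+KU. Such sums weight each fraction by the depth of its library. Heavy polysomes held 52.3% to 62.4% of the counts in LPS, 30.4% to 68.2% in LPS+ET and 37.6% to 55.5% in LPS+ET+KU. The LPS and LPS+ET+KU gradients did not overlap, a pattern met in the lower direction by 6.88% of 16111 genes.

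The fall of Apex1 from LPS to LPS+ET+KU was 2.53-fold, with a log2 change of -1.34 ± 0.25 (SE, 95% interval -1.89 to -0.79). With treatment as the only term, it was the only call among the 4 members that could be tested for ribosome association, at an adjusted p of 0.00257 by edgeR's quasi-likelihood test, where 4.42% of 12755 genes were called lower. Calls of the other members with the pool as a block are given below. Without the LPS+ET+KU gradient of pool LUL18 the adjusted p was 0.0109, above the threshold of 0.01. Over 7 other alternatives, equal weights of fractions among them, the change ran from -1.37 to -1.05 and stayed a call. Between LPS and LPS+ET the log2 change was -0.88 ± 0.25 (-1.42 to -0.34) with an adjusted p of 0.0221, and 4.81% of genes were called lower. With a block for the pool that change was -0.91 with an adjusted p of 0.0023, past the threshold, where 12.8% of genes were called lower. On leaving out the LUL15 gradient of LPS+ET the change was -1.09 and the adjusted p 0.0099.

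Addition of KU55933 to etoposide-treated cells gave no call for any member, in a comparison that called 0.235% of genes lower and 0.22% higher. The log2 change between LPS+ET and LPS+ET+KU was -0.46 for Apex1 (-1.0 to 0.08, adjusted p = 0.404 by edgeR) and -0.70 for Apex2 (-1.5 to 0.10, adjusted p = 0.389). For Ung it was 0.02 (-0.63 to 0.66) and for Pms2 0.11 (-0.53 to 0.74). These intervals include 0, and they also include changes of 1.5-fold. Over 7 alternatives, equal weights of fractions among them, the estimates ran from -0.47 to -0.27 for Apex1 and from -0.71 to -0.32 for Apex2. The gradients of each treatment enter 2 of the 3 comparisons, which are therefore not independent of each other.

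Ung mRNA on ribosomes was lower than in LPS in all 4 pools under both treatments, by an amount close to the spread between gradients. Its levels in pools LUL15 to LUL18 were 26.2, 25.6, 15.6 and 16.1 CPM in LPS. In LPS+ET they were 19, 8.27, 9.39 and 11.4 CPM, and in LPS+ET+KU 14.0, 17.9, 7.88 and 8.64 CPM. The groups overlapped, because the LPS gradients of pools LUL17 and LUL18 lay below the highest etoposide-treated ones. The log2 change was -0.93 ± 0.30 in LPS+ET (-1.57 to -0.28) with an adjusted p of 0.0411 by edgeR, and -0.91 ± 0.30 in LPS+ET+KU (-1.55 to -0.26) with an adjusted p of 0.0434. Neither passed at 0.01. Both did with the pool as a block, at -0.88 (adjusted p = 0.0037) and -0.91 (adjusted p = 0.0026), beside 12.8% and 13.3% of genes called lower.

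Apex2 mRNA on ribosomes was lower in LPS+ET+KU than in LPS in every pool. With treatment as the only term it did not pass the threshold in either etoposide treatment, but in LPS+ET+KU it did with the pool as a block. Its levels were 19.8, 24.2, 7.92 and 20.4 CPM in LPS, 16.2, 9.37, 8.23 and 17.8 CPM in LPS+ET, and 9.87, 5.36, 5.71 and 11.1 CPM in LPS+ET+KU, in the same order of pools. The LPS gradient of pool LUL17 was low, and the overlap with the treated gradients rests on it. The change to LPS+ET was -0.61 (-1.40 to 0.17, adjusted p = 0.263 by edgeR), with 3 of 4 pools lower. The change to LPS+ET+KU was -1.31 ± 0.37 (-2.11 to -0.51), with 4 of 4 pools lower and an adjusted p of 0.0228. It passed the threshold with the pool as a block (-1.30, adjusted p = 0.0007), with DESeq2 (-1.34, adjusted p = 0.0038) and without the LPS gradient of pool LUL17 (-1.57, adjusted p = 0.0066). The block called 13.3% of all genes lower, against 4.42% without it, and DESeq2 also called more genes, as given in the last section.

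Pms2 was the only member whose LPS+ET gradients all lay below its LPS gradients, a pattern found in the lower direction for 7.44% of genes. It had 5.43, 5.40, 8.02 and 8.56 CPM in LPS, and 3.67, 3.12, 4.58 and 5.21 CPM in LPS+ET. In LPS+ET+KU it had 2.69, 5.69, 4.80 and 4.58 CPM, with pool LUL16 higher than in LPS. The log2 change to LPS+ET was -0.82 ± 0.29 (-1.45 to -0.19, adjusted p = 0.0600 by edgeR) and that to LPS+ET+KU -0.71 ± 0.29 (-1.34 to -0.09, adjusted p = 0.0905). The first was called with the pool as a block, at -0.81 with an adjusted p of 0.0079, where 12.8% of genes were called lower.

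Msh6 was at the limit of detection. It had 1, 0, 5 and 1 counts in the LPS gradients, 5, 3, 9 and 4 in LPS+ET and 9, 2, 16 and 2 in LPS+ET+KU, and was too low to be tested. The LPS gradient of pool LUL16, with no count, allows up to 0.154 CPM (3 counts). Summed over the 4 gradients the level was 0.126 CPM in LPS (exact Poisson 95% interval 0.0507 to 0.260), 0.495 CPM in LPS+ET (0.306 to 0.756) and 0.492 CPM in LPS+ET+KU (0.330 to 0.707), intervals that cover counting error only. The LPS+ET values (0.437, 0.468, 0.699 and 0.342 CPM) lay above those of LPS in each pool. With KU55933 as well the values were 1.01, 0.0932, 1.05 and 0.150 CPM, and those of pools LUL16 and LUL18 rest on 2 counts each and lie below the level that 3 counts would give, so that no difference from LPS was detectable in these 2 pools.

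Along the gradient, mRNAs of the base excision enzymes had their highest mean levels in heavy polysomes in every treatment, whereas the peak of the counted Pms2 transcripts lay in the monosomes in LPS and LPS+ET+KU and in heavy polysomes in LPS+ET. In LPS the mean level of Apex1 went from 108 CPM in fraction 5 to 697 ± 192 CPM in fraction 12, where the pools LUL15 to LUL18 had 818, 898, 495 and 578 CPM. The LUL17 library of that fraction was shallow, with 16 Apex1 counts among 32306. In LPS+ET the same fraction had 763, 329, 306 and 409 CPM, with 11 Apex1 counts among the 33476 of pool LUL16. Ung peaked in fraction 11 (36 ± 14.5 CPM) and Apex2 in fraction 14 (33 ± 14.5 CPM). Pms2 was highest in fraction 7 (17.4 ± 10.1 CPM), the last of the monosomes, with 16.9, 3.7, 27.7 and 21.2 CPM in the 4 pools. In LPS+ET+KU its peak was again fraction 7 (9.44 ± 3.75 CPM), but in LPS+ET it was fraction 14 (8.27 ± 5.81 CPM, from 38 counts in 3 of the 4 gradients), the heaviest peak of the 4 members there. The Pms2 monosome level in LPS+ET (3.54 ± 3.07 CPM) differed from its heavy polysome level (4.15 ± 0.800 CPM) by less than the spread between gradients. Annotated coding sequences are 918 bases in Ung, 951 in Apex1, 1569 in Apex2 and 2577 in Pms2, and the site from which most Pms2 counts came ends a noncoding transcript.

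**Figure D2:**
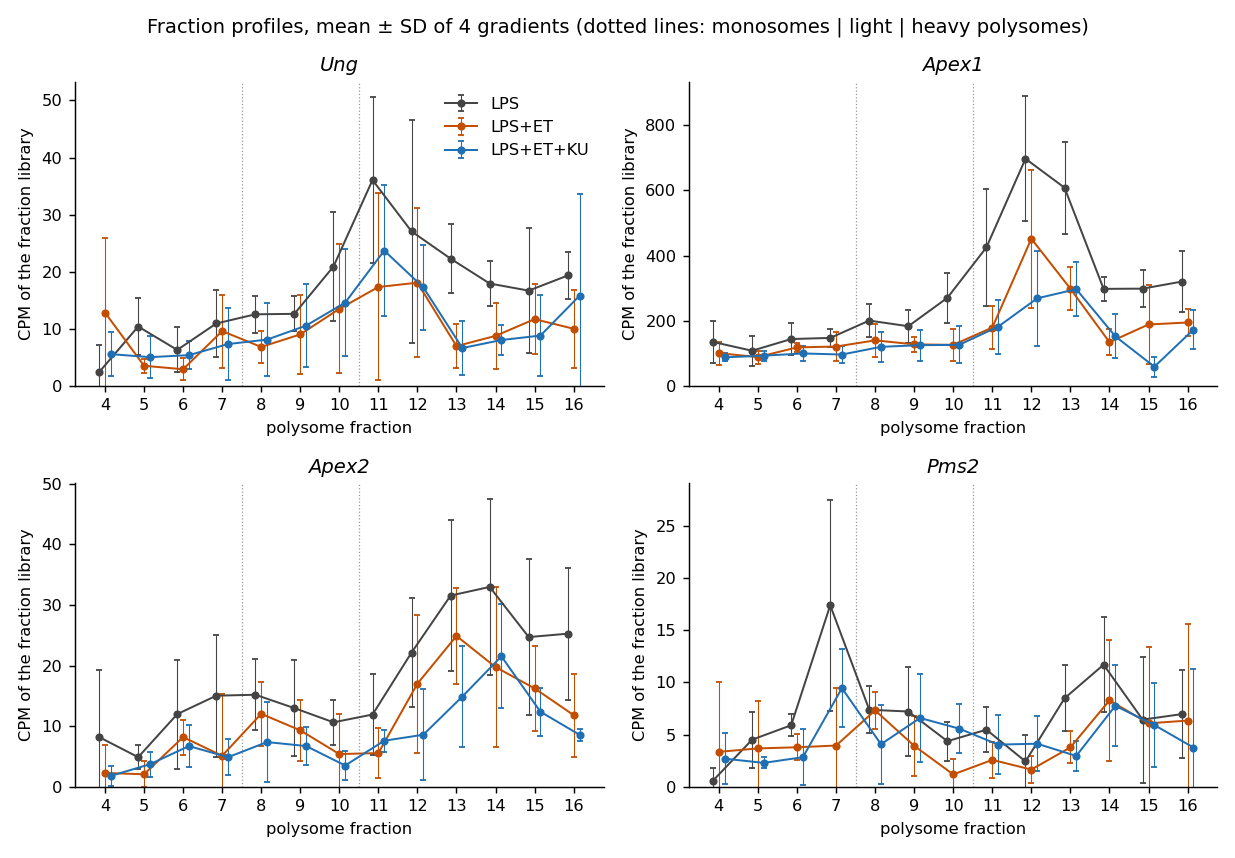
Mean level (CPM of each library) of Ung, Apex1, Apex2 and Pms2 in fractions 4 to 16, with the SD over 4 gradients and 1 line per treatment. The Apex1 peak in fraction 12 has 697 CPM in LPS and 452 CPM in LPS+ET, and the LPS+ET+KU line peaks in fraction 13 at 297 CPM.

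Heavy polysomes and monosomes were compared within each treatment by edgeR with the gradient as a block. The estimates are taken after TMM scaling of the class libraries, and they differ from ratios of CPM. Mean CPM in heavy polysomes and monosomes of LPS were 498 and 132 for Apex1 and 26.9 and 8.23 for Ung. For Apex2 they were 22.5 and 11.1, and for Pms2 6.69 ± 1.63 and 8.46 ± 2.17. After the scaling, Apex1 in LPS was 2.27-fold higher in heavy polysomes (log2 1.18, 0.94 to 1.43) and Ung 2.00-fold higher (log2 1.00, 0.61 to 1.40), both called, in a comparison that called 29.5% of 9659 genes higher. Pms2 was lower in heavy polysomes on this scale (log2 -1.03, -1.51 to -0.54, adjusted p = 0.0004), as were 29.9% of genes. Its call did not pass with DESeq2 (adjusted p = 0.0119) or without the block (adjusted p = 0.0120). Apex2 was not called in LPS (log2 0.33, -0.06 to 0.71, adjusted p = 0.122), but it was with no filter on low counts (0.60, adjusted p = 0.0046).

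In the treated cells the same comparison gave smaller estimates for Apex1, and whether the profile differed between treatments is tested with the interaction term below. In LPS+ET, where 21.9% of genes were called higher, the log2 difference between heavy polysomes and monosomes was 0.65 for Apex1 (0.17 to 1.13, adjusted p = 0.0236), 0.89 for Ung (0.15 to 1.62, adjusted p = 0.0409) and 0.98 for Apex2 (0.19 to 1.77, adjusted p = 0.0359). On leaving out the LUL16 gradient of LPS+ET the first 2 were called, at 0.69 for Apex1 (adjusted p = 0.0003) and 1.08 for Ung (adjusted p = 0.0062). With no filter on low counts all 3 were called, at 0.94 for Apex1 (adjusted p = 0.0007), 1.17 for Ung (0.0056) and 1.26 for Apex2 (0.0012), and Apex1 was also called with DESeq2 (0.68, adjusted p = 0.0092). In LPS+ET+KU, where 24.5% of genes were called higher and 25.7% lower, Ung was called higher (0.79, 0.34 to 1.25, adjusted p = 0.0035) and Pms2 lower (-0.94, -1.52 to -0.36, adjusted p = 0.0064). The Ung call was lost without the LPS+ET+KU gradient of pool LUL16, LUL17 or LUL18 (adjusted p = 0.0151, 0.0161 and 0.0123) and without the block (0.111). The Pms2 call was lost on leaving out any 1 of the 4 gradients (adjusted p = 0.0149 to 0.0329), without the block (0.0581), with DESeq2 (0.0611) and with no filter (0.0231). Apex1 had a difference of 0.37 there (0.04 to 0.71, adjusted p = 0.0497) and Apex2 one of 0.66 (adjusted p = 0.0239). Apex1 was called there with DESeq2 (0.47, adjusted p = 0.0096) and with no filter (0.55, 0.0063), and Apex2 with no filter (0.84, 0.0031).

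**Figure D3:**
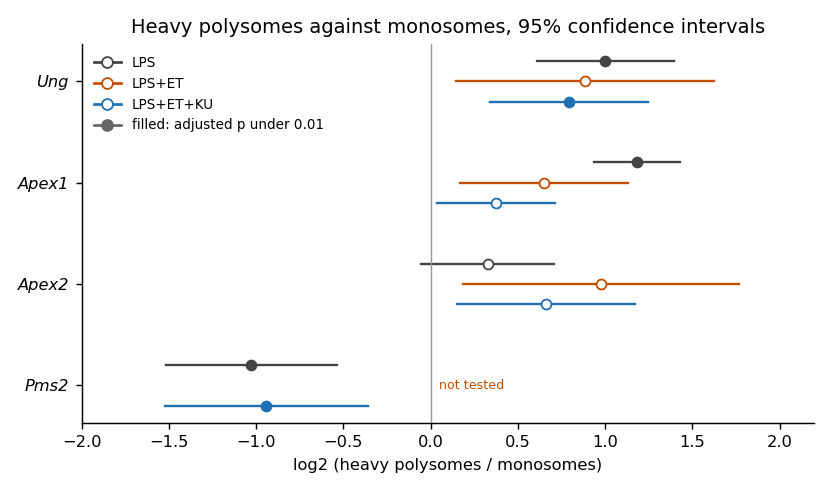
Log2 ratio of heavy polysomes to monosomes for each tested member and treatment (Pms2 was not tested in LPS+ET), as edgeR estimates with 95% intervals and filled points where the adjusted p is under 0.01. Ratios are taken after TMM scaling of the class libraries. Apex1 goes from 1.18 (LPS) to 0.65 (LPS+ET) and then 0.37 (LPS+ET+KU), and Pms2 lies at -1.03 in LPS and -0.94 in LPS+ET+KU.

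When each class of fractions was compared between treatments, the estimated decrease of Apex1 was largest in the heavy polysomes. Apex1 had 557, 653, 374 and 408 CPM there in LPS, 443, 188, 226 and 259 CPM in LPS+ET and 325, 185, 188 and 161 CPM in LPS+ET+KU. All 4 LPS+ET+KU values lay below all 4 LPS values, and the share of all genes with this pattern in heavy polysomes was not counted. The log2 change from LPS was -1.41 ± 0.29 (-2.02 to -0.80, adjusted p = 0.0040 by edgeR), where 3.01% of 11368 genes were called lower. With treatment as the only term, this was the only call of a member in any class and comparison, where 2.26% (monosomes) and 3.24% (light polysomes) of all genes were called lower in LPS+ET+KU than in LPS. In LPS+ET 3.08%, 4.07% and 3.55% of genes were called lower in monosomes, light polysomes and heavy polysomes, and 0.146%, 0.151% and 0.317% fell when KU55933 was added. The Apex1 call was lost (adjusted p = 0.0143 to 0.0166) without the LPS gradient of pool LUL15 or LUL16 or the LPS+ET+KU gradient of pool LUL17 or LUL18.

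In light polysomes the Apex1 change was -0.92 to LPS+ET (adjusted p = 0.0238) and -1.07 to LPS+ET+KU (adjusted p = 0.0139), from 222 ± 62.4 CPM in LPS to 128 ± 31.2 and 125 ± 48.7 CPM. In monosomes it was -0.25 (-0.65 to 0.16) and -0.49 (-0.89 to -0.09), from 132 ± 33.9 CPM to 106 ± 12.4 and 94.8 ± 18.2 CPM, and was not called by edgeR (adjusted p = 0.412 and 0.0970). A block for the pool brought both light polysome changes past the threshold (adjusted p = 0.0004 and 0.0001), beside 12.1% and 12.2% of genes called lower, and that of the heavy polysomes to LPS+ET too (-0.96, adjusted p = 0.0034), beside 10.1%. 

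Apex2 in LPS+ET+KU had changes from LPS of -1.31 in monosomes, -1.67 in light polysomes and -1.12 in heavy polysomes (adjusted p = 0.0796, 0.0204 and 0.0386 by edgeR). All 3 were called once the pool was a block (adjusted p = 0.0055, 0.0005 and 0.0012), as were 10.1%, 12.2% and 10.3% of genes in the lower direction. Ung changed by -1.04 in the heavy polysomes of LPS+ET (adjusted p = 0.0478) and by -0.89 in those of LPS+ET+KU (adjusted p = 0.0834). No class of Pms2 was called, and its monosome change of -1.18 in LPS+ET had an interval from -2.27 to -0.09.

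**Figure D4:**
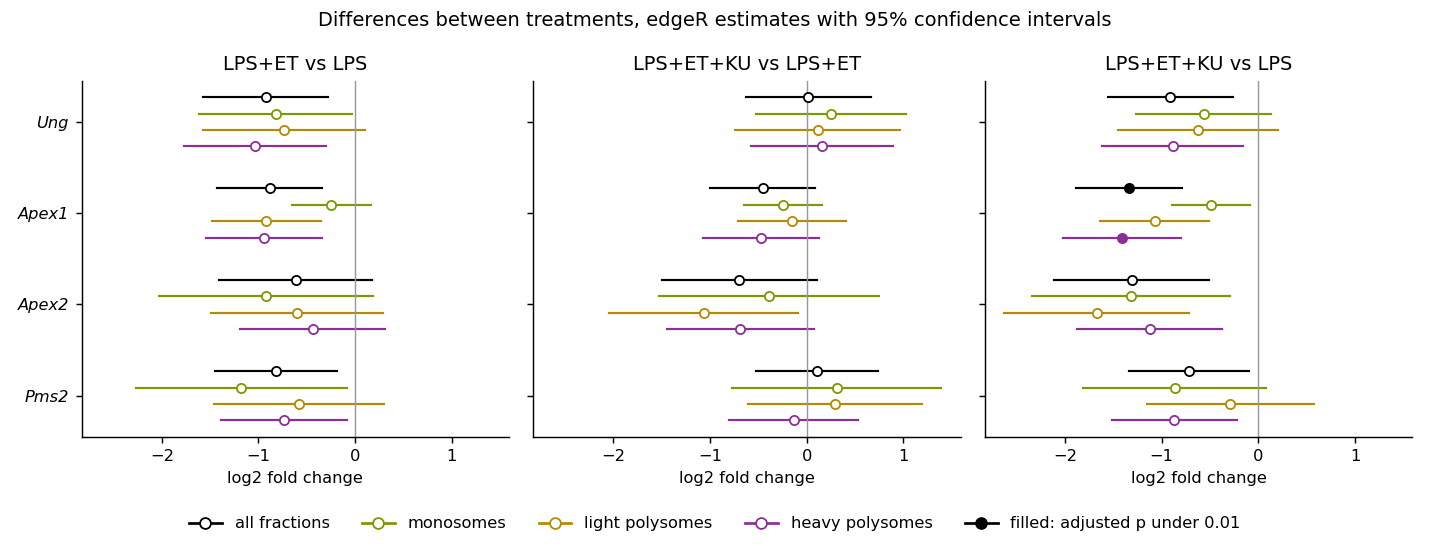
Log2 fold change of the 4 tested members in each of the 3 comparisons, for the sum of all fractions and for monosomes, light polysomes and heavy polysomes, as edgeR estimates with 95% intervals and filled points where the adjusted p is under 0.01. The filled points are those of Apex1 in LPS+ET+KU against LPS, at -1.34 for all fractions and -1.41 for heavy polysomes.

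A model of all 13 fractions tested treatment and its interaction with fraction together. It treats the fractions of a gradient as independent libraries, which they are not, so its p-values are too small. Ung (adjusted p = 0.0011) and Apex1 (8.3e-08) were called between LPS and LPS+ET, as were 31% of 10360 genes. Ung (0.0060), Apex1 (9.5e-14) and Apex2 (1.5e-06) were called between LPS and LPS+ET+KU, as were 32.7% of genes. Between LPS+ET and LPS+ET+KU no member was called, with Apex1 at 0.0284, and 8.01% of genes were. A block for the pool made the Apex1 difference a call there (adjusted p = 0.0017), as for 18.3% of genes. The Ung calls did not hold with another size factor method (adjusted p = 0.0161 and 0.0828), nor did that in LPS+ET without the LPS gradient of pool LUL15 (0.0354) or the LPS+ET gradient of pool LUL18 (0.0295). Apex2 was called in LPS+ET without the LPS gradient of pool LUL17 (0.0017) or the LPS+ET gradient of pool LUL18 (0.0037), and Apex1 between LPS+ET and LPS+ET+KU without the LPS+ET+KU gradient of pool LUL15 (0.0080).

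The interaction term alone asks whether the shape of the profile differed, rather than its height. Only Apex1 between LPS and LPS+ET+KU was called (adjusted p = 0.0063, and 9.5e-06 with a term per gradient), where 3.29% of genes were called, or 11% with the gradient terms. For Apex1 between LPS and LPS+ET the adjusted p was 0.540, or 0.0581 with a term per gradient, and for Ung, Apex2 and Pms2 no interaction was called in any comparison. Of all genes 1.37% (5.72% with gradient terms) were called between LPS and LPS+ET and 1.05% (3.63%) between the etoposide treatments. The mean level of Apex1 was lowest in fraction 5 for LPS and LPS+ET (108 and 88.1 CPM) and in fraction 15 for LPS+ET+KU (58.4 CPM).

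The share of Apex1 mRNA that lies in heavy polysomes had means in the same order, without passing a test, and in pool LUL16 the LPS+ET share was below that of LPS+ET+KU. With each fraction scaled to the same total, the heavy share of Apex1 in pools LUL15 to LUL18 was 68.9%, 67.4%, 72.1% and 68.8% in LPS. It was 68.4%, 55.4%, 62.3% and 66.77% in LPS+ET, and 60.2%, 58.0%, 60.5% and 62.1% in LPS+ET+KU. The LPS and LPS+ET+KU shares did not overlap, as was the case in the lower direction for 9.48% of 7999 genes. RiboLoad, the heavy share of the deposited counts on a log-odds scale, changed by -0.98 from LPS to LPS+ET+KU (-2.24 to 0.27, adjusted p = 0.645 by limma), and by -0.58 with the scaling (adjusted p = 0.112). In the same comparison 0 of 8000 genes were called for RiboLoad and 737 had an unadjusted p under 0.05, and with the scaling 70 were called. The other comparisons called 0 genes as well, with 177 (LPS+ET against LPS) and 252 (LPS+ET+KU against LPS+ET) under an unadjusted 0.05. On leaving out the LUL16 gradient of LPS+ET the RiboLoad change of Apex1 between LPS+ET and LPS+ET+KU was -1.44 (adjusted p = 0.0108) in place of -0.72, and 131 genes were called.

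The scaled heavy shares of the other members overlapped between all treatments. For Ung they were 64.5 ± 4.70% (LPS), 55.7 ± 10.3% (LPS+ET) and lastly 60.1 ± 9.19% (LPS+ET+KU). Apex2 had 67.5 ± 9.83%, 69.3 ± 10.2% and 68.7 ± 5.45%, against 55.2%, 53.9% and 54.7% for the median gene. Pms2 was below the median gene in each treatment, at 47.2 ± 8.43%, 48.4 ± 26.6% and 44.8 ± 9.04%, and its LPS+ET values, which rest on 20 to 61 counts a gradient, ran from 18.7% to 75.5%. RiboLoad changes of Ung from LPS were -0.38 with etoposide alone and -0.54 with KU55933 as well, and those of Apex2 0.26 and -0.12, each with an interval that included 0. Leaving out the LUL16 gradient of LPS+ET turned the change in LPS+ET to 0.54 for Ung (adjusted p = 0.447 by limma) and to 0.46 for Apex1 (adjusted p = 0.428), neither called.

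**Figure D5:**
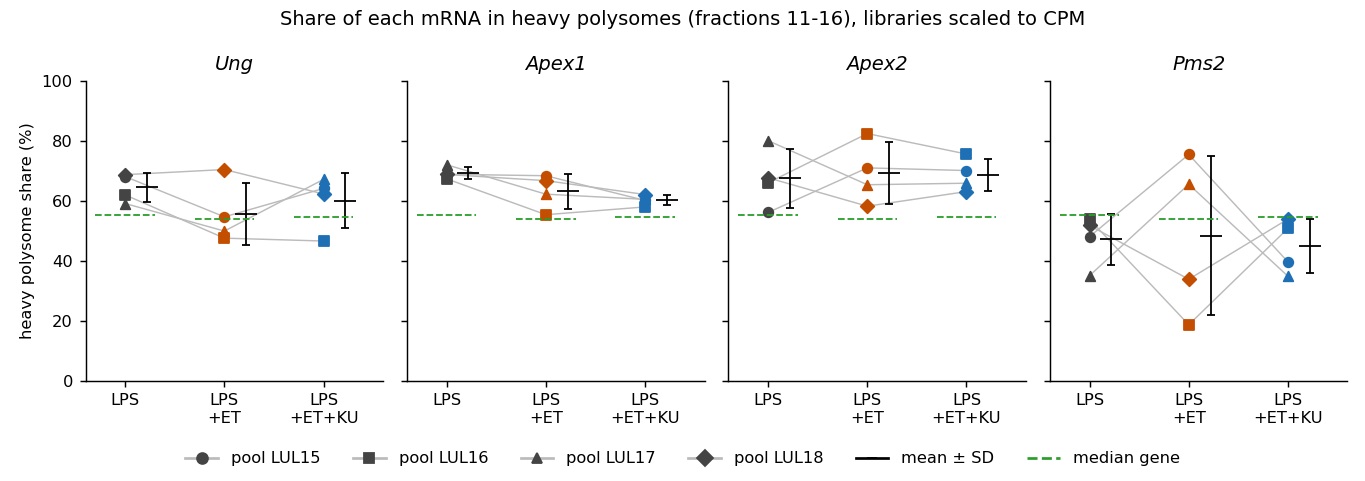
Share of each member's level that lies in fractions 11 to 16, in percent, with each library scaled to CPM, a point per gradient, mean ± SD beside the points and the median gene as a dashed line. Apex1 lies at 67.4% to 72.1% in LPS and at 58.0% to 62.1% in LPS+ET+KU, and the Apex2 means are 67.5%, 69.3% and 68.7%.

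Few other genes of the same pathways were called, and the lists, which hold the members too and share genes with each other, had median changes near or below 0. Of 20 tested base excision repair genes 2 rose and none fell in LPS+ET (median log2 change -0.12, against 0.03 for all genes), where 7.88% of all genes were called higher and 4.81% lower. Both are glycosylases that start base excision on bases other than uracil. Nthl1, which removes oxidized pyrimidines, had 21, 20.9, 13.6 and 16.2 CPM in LPS and 126, 36.5, 109 and 112 CPM in LPS+ET, and rose by 2.29 ± 0.33 (SE) on the log2 scale (adjusted p = 0.000259 by edgeR). The alkyladenine glycosylase Mpg rose by 0.88 ± 0.17 (adjusted p = 0.0020 by edgeR), from 38.6 ± 4.11 to 77.5 ± 13.0 CPM. However, Mpg sites with 4454 and 4480 counts lie inside Nprl3 on the other strand, 3 and 29 bases from Nprl3 sites. The pool block gave 5 calls in the list, 2 up and 3 down, beside 13.9% of all genes higher and 12.8% lower. In LPS+ET+KU 1 of 20 was called, Apex1 (median -0.10, against 0.09 for all genes), beside 6.25% of all genes higher and 4.42% lower, and 5 with the block, all down, beside 14.9% of all genes higher and 13.3% lower.

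Of 20 tested mismatch repair genes none was called in LPS+ET (median -0.28) and 1 in LPS+ET+KU (median -0.38), where 4.81% and 4.42% of all genes were called lower. The latter was Rpa3, the smallest subunit of the single-strand binding protein RPA, which fell by 0.83 on the log2 scale (SE 0.19, adjusted p = 0.0068 by edgeR), from 21.2 ± 2.04 to 12.9 ± 0.850 CPM. Its adjusted p was 0.0104 to 0.0202 in the 8 fits that left out a gradient. The pool block gave 3 and 5 calls, all lower, as were 12.8% and 13.3% of all genes.

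Of 17 accessory genes of immunoglobulin gene diversification, 2 fell in LPS+ET (median -0.03) and 1 in LPS+ET+KU (median -0.20), beside 4.81% and 4.42% of all genes. Ercc6l2, a helicase-like protein of double-strand break repair, fell by 1.32 (SE 0.22, adjusted p = 0.00086), from 65.4 ± 13.3 to 28.3 ± 9.59 CPM. Shld1, a shieldin subunit that limits end resection, fell by 1.51 (SE 0.33, adjusted p = 0.0046), from 26.9 ± 4.04 to 10.3 ± 4.45 CPM, a call lost in 5 of the 8 fits that left out a gradient. Rif1, which acts with shieldin at breaks, fell in LPS+ET+KU by 1.2 (SE 0.26, adjusted p = 0.0055), from 27.5 ± 8.77 to 13.0 ± 3.04 CPM, a call lost in 6 such fits. The pool block gave 5 calls in each comparison, all down but for 1 in LPS+ET, where 12.8% (LPS+ET) and 13.3% (LPS+ET+KU) of all genes were called lower.

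None of the 9 genes of uracil and nucleotide pool metabolism, Ung among them, was called by edgeR in either comparison with LPS. Their median change was -0.38 for LPS+ET, and it was -0.62 for LPS+ET+KU, where 9 of 9 were below 0, as were 44.4% of all genes tested. The pool block gave 4 calls in LPS+ET, 1 up and 3 down, and 6 in LPS+ET+KU, all down, where 12.8% and 13.3% of all genes were called lower. Between LPS+ET and LPS+ET+KU edgeR called no gene of the 4 lists on all 12 gradients without the block. With DESeq2 it was 2 base excision repair genes, both lower (2% of all genes), and 2 lower also when pool LUL16 lacked its LPS+ET gradient (0.715%). With the block 2 base excision repair genes and 2 of the uracil and nucleotide pool list were lower and 1 accessory gene higher, where 3.59% of all genes were lower and 2.77% higher.

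Gene by gene, the mean profiles over 39 points (13 fractions in 3 treatments, log2 of CPM plus 1) were set beside those of the 8000 genes that averaged at least 100 counts a gradient. The points share libraries and a common gradient shape, so that the correlations are descriptions. Apex1 was most like Rad23b (Pearson r = 0.938), the pseudogene Gm12791 (0.915) and Csk (0.912). Profiles close to that of Ung were those of AI848285 (0.856) and Ebna1bp2 (0.841), and Apex2 was most like Shcbp1 (0.896), D19Bwg1357e (0.894) and Nudcd1 (0.889). The closest profiles to Pms2 were those of Sh3bp2 (0.781), Clcn6 (0.752) and Ifi203 (0.728), and Msh6, on 57 counts, had no profile above 0.539 (Tubb3), followed by Slc25a36 (0.494) and Zfp639 (0.494). Among the members, Apex1 was nearer to Apex2 (0.665) and Ung (0.622) than to Pms2 (0.144), and Ung had 0.445 with Apex2.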

How the data were processed

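PolyRibo-3′ RNA-seq was performed on 3 treatments of mouse splenic B cells, with 4 gradients each and 13 fractions per gradient. The deposited values are whole-number read counts per gene and fraction. According to the study's methods, reverse transcription used a primer with a random barcode for removal of PCR duplicates, the RNA was amplified, equal RNA concentrations were taken for each library, and the authors aligned reads to GRCm38 and summed the counts of 3′ end sites per Ensembl gene. Thus a library total does not measure the mRNA content of its fraction. The submitters' processing notes name TopHat2 2.0.12, HTSeq and DESeq2 1.6.3. Of the 157 columns, 79 were matched to a single sample and 78 only to a treatment. The code used as pool and the fraction were read from the column names. The study describes the gradients as biological replicates.

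For each gradient the counts of its 13 fractions were added up and tested on all 12 gradients with edgeR 4.0.16 (R 4.3.3) by the quasi-likelihood test, with TMM factors, the default filter on low counts and treatment as the only term. The 3 fraction classes were treated likewise. Heavy polysomes and monosomes were compared with the gradient as a block, and profiles by a model of fraction, treatment and their interaction on the 104 libraries of each comparison. RiboLoad was tested with limma 3.58.1 on the log2 odds, with 0.5 added, for genes averaging at least 100 counts per gradient. A call required a p under 0.01 after Benjamini-Hochberg adjustment over all genes tested. CPM were taken relative to the total of the summed libraries. DESeq2 1.42.0, other size factors, no filter, the pool as a block, equal weights of fractions and leaving out each gradient were alternatives. Figures were drawn with matplotlib 3.10.9.

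Gradients of the same pool deviated together from their treatment means, with r = 0.368 to 0.844 in 12 of 12 pairs. In 36 pairs of different pools r was -0.655 to 0.349. The column-name codes, called pools here, therefore pair the gradients. Fits with treatment as the only term leave this pairing out.

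On simulated counts for 19600 genes (LPS+ET against LPS, gradient sums) 18% of 100 genes changed by 1 log2 unit and 86% of those changed by 2 were called by edgeR, and 1 unchanged gene was. The simulation gave every gene the same dispersion and had no pairing by pool, so these rates need not hold for the real counts.

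The members and gene lists were chosen with earlier results of these data known. Named were the 5 members, list genes called in ribosome association (at most 10 per comparison), the 3 genes most alike to each member, and the most abundant gene of each marker list. The lists are not complete, and some genes that these rules name are not reported here.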

Additional observations from a re-analysis of the deposited data

Results flagged for a closer look

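Groups of 4 gradients were searched for a highest or lowest value set apart from the rest by a gap beyond Dixon's critical value at 95%. Chance alone gives about 1 such value in 20 groups, and 3 of 45 groups had one. The Apex1 level in LPS+ET+KU was 229 CPM in pool LUL15, against 128 to 143 CPM in the other 3 pools. The Msh6 level in LPS was 0.542 CPM in pool LUL17, from 5 counts, against 0 to 0.0764 CPM in the others. The heavy polysome share of the deposited Apex1 counts in LPS+ET was 38.8% in pool LUL16, against 82.2% to 82.7% in the others. In that gradient 30.4% of the counts of all genes lay in heavy polysomes, and with each fraction scaled to the same total its Apex1 share was 55.4%, against 62.3% to 68.4%.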

How the results depend on the processing

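All counts here are of genes called over all genes tested. For ribosome association in LPS+ET against LPS, 1618 genes became 3403 with the pool as a block and 2875 at an adjusted p under 0.05. In LPS+ET+KU against LPS+ET, 58 became 412 with DESeq2, 811 with the block, 319 at 0.05, 0 with only the 8 compared gradients and 21 with equal weights of fractions. In LPS+ET+KU against LPS, 1361 became 2263 with DESeq2, 3589 with the block, 2903 at 0.05 and 875 with equal weights. Log2 changes that then passed were Ung in LPS+ET (-0.88 with the block, -0.93 at 0.05), Apex1 in LPS+ET (-0.90 with DESeq2, -0.91 with the block, -0.88 at 0.05), Pms2 in LPS+ET (-0.81 with the block), Ung in LPS+ET+KU (-0.91 with the block, -0.91 at 0.05) and Apex2 in LPS+ET+KU (-1.34 with DESeq2, -1.30 with the block, -1.31 at 0.05). The block, in which the pairing of gradients by pool enters, changed no other call of a member in ribosome association, and its effect on classes, profiles and lists is given with those results.

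With the block, monosome calls in LPS+ET against LPS, LPS+ET+KU against LPS+ET and LPS+ET+KU against LPS rose from 850, 19 and 532 to 2195, 502 and 2068, light polysome calls from 1055, 29 and 707 to 2482, 531 and 2389, and heavy polysome calls from 1101, 65 and 904 to 2338, 372 and 2433. With DESeq2 monosome calls were 110 and 911 in the comparisons of LPS+ET+KU with LPS+ET and LPS, light polysome calls 203 and 1199, and heavy polysome calls 1762, 279 and 1645 in the 3 comparisons. With no filter, 37 monosome calls were made in LPS+ET+KU against LPS+ET. RiboLoad calls rose from 0 to 25 (LPS+ET) and 70 (LPS+ET+KU) against LPS when fractions were scaled, to 18 and 58 with the block, and to 1 in LPS+ET+KU against LPS+ET for genes averaging at least 20 counts. Heavy polysomes against monosomes without the gradient block gave 2157 calls in place of 3486 in LPS+ET and 2317 in place of 5398 in LPS+ET+KU. For profiles the interaction alone gave 142, 110 and 339 calls in place of 3208, 839 and 3373, or 593, 380 and 1132 with a term per gradient, and the block gave 1919 between LPS+ET and LPS+ET+KU.

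Leaving out each gradient in turn gave ribosome association log2 changes of -1.09 to -0.72 for Apex1 in LPS+ET, -1.51 to -1.17 for Apex1 in LPS+ET+KU and -1.57 to -1.12 for Apex2 in LPS+ET+KU. Counts ranged from 19 to 172 in LPS+ET+KU against LPS+ET and from 755 to 1708 in LPS+ET+KU against LPS. Class counts ranged from 520 to 759, 2 to 38 and 258 to 661 for monosomes, 2 to 52 and 356 to 813 for light polysomes (comparisons of LPS+ET+KU with LPS+ET and LPS), and 721 to 1364, 9 to 105 and 457 to 1106 for heavy polysomes. RiboLoad counts ranged from 0 to 1 in LPS+ET against LPS and from 0 to 131 in LPS+ET+KU against LPS+ET, heavy polysomes against monosomes in LPS+ET from 2238 to 4919, and profiles in LPS+ET+KU against LPS+ET from 406 to 1173. The profile of LPS+ET+KU against LPS was not refitted in this way. No result changed direction past its threshold. The causes of these differences were not tested.

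Scaling each fraction moved the median RiboLoad change of all genes by 0.38 in LPS+ET+KU against LPS+ET and by 0.43 in LPS+ET+KU against LPS. At this depth Msh6 could not be tested, Pms2 rested on 20 to 122 counts a gradient, and some single fractions had no count of Ung, Apex2 or Pms2.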
